A study of Mus musculus with 2 samples.

Results

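The genes described are the 4 tissue inhibitors of metalloproteinases, Timp1, Timp2, Timp3 and Timp4, and Reck, a membrane-anchored inhibitor of the same enzymes. They were chosen by symbol, and all 5 were found among the 32285 genes of the count tables. Droplet single-cell RNA sequencing (scRNA-seq) had been run on the temporomandibular joint (TMJ, the jaw joint) of C57BL/6 mice aged 8 to 10 weeks, all of them injected into the joint with complete Freund's adjuvant (CFA), an emulsion with killed mycobacteria that inflames the joint. The 2 libraries differ in genotype: 1 is from WT mice and 1 is from Prox1 mutant mice, which carry 1 functional copy of Prox1 by the study's methods and serve as the model of reduced lymphatics. The study's text gives the mice of these libraries as female. How many mice were pooled, and how long after CFA the joints were taken, is not given in the sources used here.

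Matrix metalloproteinases (MMPs) and their relatives of the ADAM and ADAMTS families cut collagen, proteoglycan and membrane proteins with a zinc ion in the active site. A TIMP is a small secreted protein that slots its amino-terminal edge into that site. TIMP1 also binds the latent form of MMP9, TIMP2 binds latent MMP2 and together with the membrane enzyme MMP14 takes part in its activation, and TIMP3 stays bound to the matrix and also inhibits ADAM17 and the aggrecan-cutting ADAMTS enzymes. TIMP4 has the narrowest tissue range of the family, and RECK sits in the cell membrane on a lipid anchor. In joints the balance of these enzymes and their inhibitors bears on the loss of cartilage matrix.

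Levels are given as CPM, the unique molecular identifiers (UMIs, 1 for each captured transcript) of a gene per 1000000 UMIs summed over a group of cells, with exact Poisson intervals at 95%. Differences are log2 ratios of CPM, Prox1 mutant to WT, with 95% intervals from the exact binomial split of the UMIs. With 1 library per condition there is no replicate error and no test between the conditions was made, so every interval covers counting error only. A gene is counted as higher or lower in the mutant when it had at least 50 UMIs over both libraries and its CPM differed by more than 1.5-fold. The counts come from the 3′ ends of transcripts, and levels were compared between cell types for the same gene, not between genes. Only the summed Timp and Mmp UMIs, which differ in gene number and transcript ends, were set beside each other.

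After filtering, 4352 WT cells with 48366846 UMIs and 5757 mutant cells with 54330221 UMIs remained, at a median of 6997 UMIs per cell in WT and 4848 in the mutant. Prox1 itself had 563 UMIs in WT (11.6 CPM) and 315 in the mutant (5.80 CPM), and 152 of the WT UMIs lay in 1 endothelial droplet, without which the WT level was 8.51 CPM. In muscle cells Prox1 was at 313 CPM in WT and 487 in the mutant. The cells fell into 43 clusters, and 15 marker-named cell types had at least 20 cells in each library. Unnamed clusters held 312 WT cells and 1444 mutant cells, among them clusters led by haemoglobin and immunoglobulin genes that came mostly from the mutant library. No cluster took the name of lymphatic endothelium. The libraries shared 10 cell barcodes.

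In GRCm38 (GENCODE M21), Timp1 (ENSMUSG00000001131) lies on chrX:20870166-20874735, inside Syn1 on the opposite strand. Timp3 (ENSMUSG00000020044) lies on chr10:86300372-86349506, inside Syn3, and Timp4 (ENSMUSG00000030317) on chr6:115241892-115252205, inside Syn2, again on opposite strands. Each of these 3 inhibitor genes is therefore nested in a synapsin gene. The hosts had few UMIs beside their guests: Syn1 had 206 in WT and 161 in the mutant, Syn2 had 239 and 125, and Syn3 had 920 and 963. Timp2 (ENSMUSG00000017466) spans chr11:118301069-118355740 and contains Cep295nl on its own strand, which had 65 and 58 UMIs. Reck (ENSMUSG00000028476) spans chr4:43875530-43944806.

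The 5 genes differ in the make-up of the 250 bases before their RefSeq start (GRCm38.p6), measured against the 32851 promoters of the table, whose medians were 52.4% GC and 6 CpG dinucleotides. For Timp2 and Timp3 the RefSeq start lies inside the GENCODE gene given above. The Timp2 window lies wholly inside that gene, and the Timp3 window (chr10:86300162-86300411) reaches into it. CpG counts and motif distances refer to the RefSeq start. Timp2, Reck and Timp3 were rich in CpG, with 21, 19 and 18, and Timp1 had 6. Timp4 had 2, the fewest of the 5, at 53.6% GC. The promoters of Timp4, highest in endothelial cells, and of Timp2 and Timp1, both highest in mesenchymal cells, are printed to show this range of CpG number. They run 5′ to 3′ on the gene's strand with CpG in capitals, from chr6:115252206-115252455 (minus strand), chr11:118355412-118355661 (minus strand) and chrX:20869916-20870165 (plus strand).
Timp4: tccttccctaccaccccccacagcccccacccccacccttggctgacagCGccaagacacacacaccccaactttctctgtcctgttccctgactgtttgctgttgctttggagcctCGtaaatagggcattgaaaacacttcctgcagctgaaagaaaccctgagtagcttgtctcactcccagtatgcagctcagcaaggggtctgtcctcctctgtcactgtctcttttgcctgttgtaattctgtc
Timp2: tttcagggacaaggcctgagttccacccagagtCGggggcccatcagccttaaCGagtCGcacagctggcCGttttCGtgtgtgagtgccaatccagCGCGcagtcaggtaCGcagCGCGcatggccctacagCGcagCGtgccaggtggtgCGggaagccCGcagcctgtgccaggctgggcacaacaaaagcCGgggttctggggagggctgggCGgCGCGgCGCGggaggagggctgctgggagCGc
Timp1: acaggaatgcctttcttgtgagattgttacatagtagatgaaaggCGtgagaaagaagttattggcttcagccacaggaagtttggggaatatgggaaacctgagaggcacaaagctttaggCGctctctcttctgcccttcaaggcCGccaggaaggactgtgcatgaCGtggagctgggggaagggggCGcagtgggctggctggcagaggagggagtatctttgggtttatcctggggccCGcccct
The GC box GGGCGG, searched on both strands and overlapping CpG by its letters, stands in 32.7% of all promoters and was found in Timp1 (8 bases before the start), Timp2 (37), Timp3 (15) and Reck (92 and 55), and not in the Timp4 window. CCAAT, in 33.8% of promoters, was found in Timp1, Timp2 and Reck. The AP-1 letters TGANTCA (6.75% of promoters), TATAAA (12.4%) and the ETS letters CCGGAA (12.03%) were found in none of the 5 windows.

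The 5 genes were divided among the cells of the joint. Timp1 and Timp2 were highest in mesenchymal cells (fibroblasts and related matrix-making cells) of both libraries, Timp3 in Schwann cells, pericytes, endothelial cells and chondrocytes, Timp4 in endothelial cells, and Reck in Schwann cells. Timp1 reached 476 CPM (95% interval 461 to 492) in WT mesenchymal cells, and Timp2 reached 1532 CPM (1505 to 1559). Timp3 reached 1571 CPM (1514 to 1629) in WT Schwann cells, and Timp4 reached 506 CPM (490 to 522) in WT endothelial cells. These leading cell types were the same in both libraries. B cells, a type that should lack these genes, gave the background: Timp1 was at 1.29 and 2.28 CPM there in WT and the mutant, Timp2 at 12.9 and 10.3, Timp3 at 5.15 and 11.4, and Timp4 at 0 and 1.14.

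**Figure D1:**
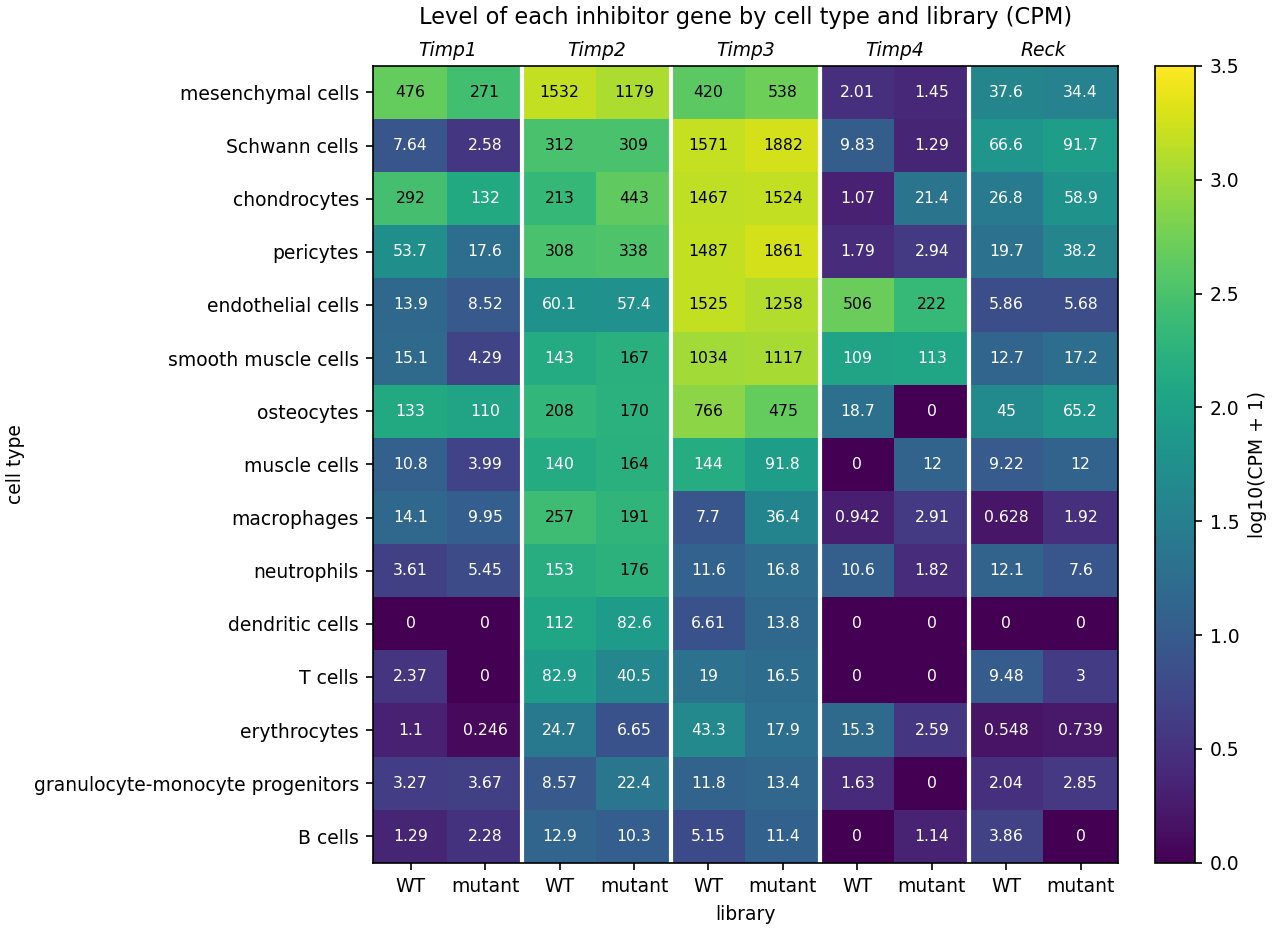
Level of each inhibitor gene (CPM, printed in each cell; colour is log10(CPM + 1)) in the 15 cell types of both libraries. Timp1 and Timp2 are brightest in mesenchymal cells, Timp4 in endothelial and smooth muscle cells, and Timp3 in all matrix, nerve and vessel types, from 420 to 1882 CPM.

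Over all kept cells, every member was lower in the Prox1 mutant library than in WT. Timp1 was at 94.3 CPM in WT and 45.6 in the mutant (log2 ratio -1.05, 95% interval -1.12 to -0.98). Timp2 went from 380.2 to 244 CPM (-0.64, -0.67 to -0.61), and Timp3 from 493 to 306 (-0.69, -0.72 to -0.66). Timp4 had the widest gap, at 86.2 CPM in WT and 27.5 in the mutant (-1.65, -1.73 to -1.56). Reck was at 14.9 and 10.7 CPM (-0.48, -0.64 to -0.32). Thus 4 of the 5 were lower by more than 1.5-fold, where 14.3% of the 16643 genes tested were lower and 10.0% higher. Timp2 came to -0.56 relative to the median gene, -0.57 without haemoglobin and mitochondrial UMIs and -0.51 both as a mean over cells and thinned, all inside 1.5-fold. Over all kept cells, fewer cells of a type and less RNA per cell cannot be told apart.

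The cell mixture moved with these totals. Mesenchymal cells made up 12.5% of kept cells in WT and 7.83% in the mutant, endothelial cells 26.0% and 11.1%, and Schwann cells 8.57% and 2.80%. Each mutant cell type was then given the share of UMIs it had in WT, with all unnamed clusters as 1 type. This calculation was chosen after these values were seen. The log2 ratios became -1.08 for Timp4, -0.72 for Timp1, -0.29 for Timp2, -0.06 for Timp3 and 0.01 for Reck. Timp4 and Timp1 stayed lower by more than 1.5-fold under this weighting, and Timp3 and Reck came close to equality. The mixture of subtypes within each type was left as it was. As a mean over cells the Timp1 ratio over all kept cells was -0.20, and in cells thinned to 2000 UMIs it was -0.27.

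Most UMIs of each gene came from few types. Mesenchymal cells held 83.1% of Timp1 UMIs in WT and 67.7% in the mutant, while unnamed clusters held 0.395% and 15.9%. For Timp2 the mesenchymal share was 66.3% and 55.1%, followed by macrophages with 17.8% and 20.3%. Endothelial cells held 47.0% and 37.3% of Timp3 UMIs, and 89.1% and 73.3% of Timp4 UMIs. Smooth muscle cells held 4.34% of Timp4 UMIs in WT and 10.6% in the mutant. Reck was the most scattered, with 41.6% and 36.7% in mesenchymal cells and 16.97% and 12.2% in Schwann cells.

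**Figure D2:**
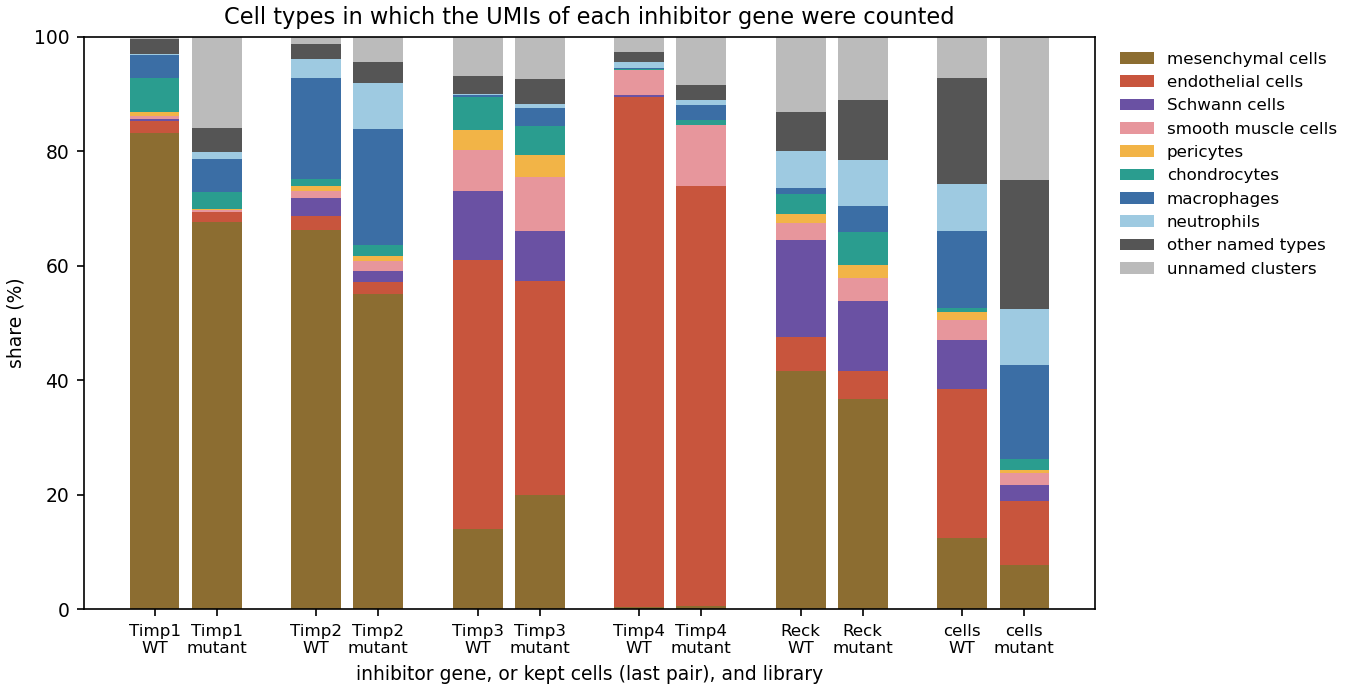
Share (%) of each gene's UMIs that came from each cell type, by library, with the make-up of the kept cells as the last pair of bars. Mesenchymal cells are 12.5% of WT cells and hold 83.1% of WT Timp1 UMIs, and endothelial cells are 26.0% of WT cells and hold 89.1% of WT Timp4 UMIs.

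Timp1, whose protein also binds latent MMP9, was a gene of mesenchymal cells, with chondrocytes and osteocytes next. WT levels were 476 CPM in mesenchymal cells, 292 in chondrocytes, 133 in osteocytes and 53.7 in pericytes, with no overlap of intervals between neighbours in that order. In the mutant the levels were 271, 132, 110 and 17.6 CPM, and the intervals of chondrocytes and osteocytes overlapped. In mesenchymal cells Timp1 had 3790 UMIs over 544 WT cells and 1675 over 451 mutant cells, a log2 ratio of -0.81 (-0.90 to -0.73). It was lower by more than 1.5-fold, unlike the other 3 members tested there, where 5.45% of genes were lower and 6.77% higher. With a filter of 200 genes and 20% mitochondrial share, Timp1 was at -0.52, inside that fold, and Timp2 at -0.61, past it. Outside this type Timp1 was at most 15.1 CPM in smooth muscle cells, macrophages, endothelial cells, Schwann cells and neutrophils of either library.

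Timp1 was unevenly spread within mesenchymal cells. After each cell had been thinned to 2000 UMIs, which left out 16 shallower WT cells and 61 mutant cells, 27.3% of the WT cells (23.5% to 31.3%) and 22.6% of those of the mutant (18.5% to 27.0%) had a Timp1 UMI, against 57.0% and 52.5% before thinning. The 10% of cells with most Timp1 held 69.6% of its thinned UMIs in WT and 65.0% in the mutant. The variance over the mean was 4.89 and 2.96, where an even spread with counting error alone gives 1. For comparison, the leading 10% of mesenchymal cells held 29.7% and 32.8% of Timp2 UMIs. In WT the droplet with most Timp1 had 183 UMIs, in the mutant 219, and without these droplets the levels were 454 and 237 CPM. Thus the upper end of Timp1 lay in a minority of cells in both libraries.

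The lower Timp1 of the mutant was present in both large mesenchymal clusters. In the cluster led by Clec3b, Prg4, Has1 and Pi16 (367 WT and 233 mutant cells), Timp1 was at 491 CPM in WT and 298 in the mutant, -0.72 (-0.82 to -0.62), where 5.37% of genes were lower. In the cluster led by Tnn, Fmod and Postn (171 and 106 cells), it was at 443 and 192 CPM, -1.21 (-1.40 to -1.02), where 7.17% of genes were lower. The genes that had named this second cluster as tendon-type also differed, with 4 of 6 lower and a median log2 ratio of -1.22, so its cells were not alike in the 2 libraries. The genes that had named the first cluster as lining-type went from 3035 to 4835 CPM in sum, with 3 of 6 higher and a median of 0.57. Over all mesenchymal cells, summed macrophage markers went from 49.3 to 127 CPM with 7 of 8 higher, Schwann markers from 151 to 75.3 with 6 of 8 lower, and the general mesenchymal markers from 29564 to 23378. Their part in the Timp1 value was not tested.

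Split by Pi16, the marker of a fibroblast type found in many tissues, the mesenchymal cells gave different values on each side, a split chosen after the levels had been seen. In cells without a Pi16 UMI, Timp1 was at 606 CPM in 313 WT cells and 207 in 294 mutant cells, -1.55 (-1.66 to -1.43). In cells with Pi16 it was at 321 CPM in 231 WT cells and 378 in 157 mutant cells, 0.24 (0.11 to 0.36), and at 280 and 289 CPM once the droplet with most Timp1 was left out of each. The WT order, more Timp1 without Pi16 than with it, was thus the other way round in the mutant. Split by Prg4, which encodes lubricin of the joint lining, Timp1 was lower in the mutant on both sides, from 553 to 301 CPM with Prg4 and from 372 to 221 without it. Detection of a marker UMI depends on depth, and the median depth was 14305 UMIs in WT cells with Pi16 and 10720 in mutant cells with it.

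Elsewhere in the mutant, Timp1 was among the leading genes of a small unnamed cluster. Its leading genes included Mmp10, Ccl2, Timp1 and Dntt, and it held 4 cells of WT and 66 of the mutant. Of the marker lists that of B cells scored highest in it, with Cd79a, Vpreb3 and Igll1 raised. The mutant cells had 202 Timp1 UMIs at 820 CPM. Since Timp1 helped to define it, this level is a description of the cluster. A further mesenchymal cluster of 6 WT and 112 mutant cells, with Igha and Igkc of plasma cells among its leading genes, had Timp1 at 269 CPM in the mutant. Leaving out the clusters of which 1 library held at least 80% did not move the Timp1 ratio in mesenchymal cells from -0.81.

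Timp2, the partner of MMP2 and MMP14, was the most widely found member. It was highest in mesenchymal cells, at 1532 CPM in WT and 1179 in the mutant (12191 and 7296 UMIs), a log2 ratio of -0.38 (-0.42 to -0.34). Schwann cells had 312 and 309 CPM and pericytes 308 and 338, with intervals that overlapped each other in both libraries. Macrophages had 257 and 191 CPM, and neutrophils 153 and 176. Endothelial cells stood apart among the non-blood cells, with 60.1 and 57.4 CPM. So Timp2 was a gene of stroma, nerve and myeloid cells more than of vessel lining.

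In thinned mesenchymal cells, a Timp2 UMI was found in 86.0% of the WT cells (82.7% to 88.8%) and 75.4% of those of the mutant (70.8% to 79.6%). Both values stood far above B cells, with 3.36% in WT and 1.06% in the mutant, and erythrocytes, with 1.65% and 0.966%. Neutrophils reached 23.0% and 28.9%, and macrophages 26.1% and 25.0%, each also above B cells. The myeloid Timp2 therefore lay above the level found in cells that should lack it. One of the neutrophil clusters, with 48 WT and 235 mutant cells, had Ccl8 as its first leading gene. Macrophage markers in it summed to 3166 and 3319 CPM, beside 2100 and 2029 in the macrophage cluster led by Mmp12. The part of this cluster in the neutrophil values was not tested. Before thinning the mesenchymal shares were 95.4% and 84.7%, at median depths of 12211 and 11373 UMIs, and the B cell shares 6.12% and 5.04%, at 4013 and 4827 UMIs.

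The Timp2 difference was not the same in all mesenchymal cells. In the Prg4 and Pi16 cluster it went from 1692 to 1161 CPM, -0.54 (-0.59 to -0.49), and in the Fmod and Tnn cluster from 1166 to 1358, 0.22 (0.14 to 0.30). With Pi16 it was at 1891 and 1413 CPM, and without Pi16 at 1232 and 1041. In macrophages the ratio was -0.43 (-0.50 to -0.35). The inflammatory macrophage cluster led by Mmp12 had Timp2 at 279 CPM in WT and 172 in the mutant, -0.70 (-0.80 to -0.60), whereas the cluster led by C1qa and Mrc1 had 224 and 230 CPM, 0.04 (-0.08 to 0.16). In chondrocytes Timp2 went from 213 to 443 CPM, 1.06 (0.78 to 1.33).

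The chondrocyte values need the identity of the cells beside them. Among 4 members tested in chondrocytes, Timp2 and Reck were higher and Timp1 lower, where 30.2% of genes were higher and 19.4% lower. All 8 chondrocyte markers were lower in the mutant, from 43579 to 5594 CPM in sum, and the median depth was 32750 UMIs in 29 WT cells and 3197 in 106 mutant cells. Their part in the chondrocyte differences was not tested.

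Timp3, the matrix-bound inhibitor, was the gene of nerve, vessel wall and cartilage. In WT its levels were 1571 CPM in Schwann cells, 1525 in endothelial cells, 1487 in pericytes and 1467 in chondrocytes, and each of these overlapped its neighbour. Smooth muscle cells followed with 1034 CPM, osteocytes with 766 and mesenchymal cells with 420.1, without overlap. In the mutant, Schwann cells (1882 CPM) and pericytes (1861) overlapped, and chondrocytes (1524), endothelial cells (1258) and smooth muscle cells (1117) stood apart from each other. The high levels of Timp3 thus spanned cells of several lineages, and blood cells were at 43.3 CPM or less.

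Timp3 differed in direction between cell types. In Schwann cells it was higher in the mutant, 0.26 (0.17 to 0.35; 2878 and 1457 UMIs), and in pericytes also, 0.32 (0.17 to 0.47). In endothelial cells it was lower, -0.28 (-0.32 to -0.23; 11195 and 6202 UMIs). In mesenchymal cells it was higher, at 420.1 CPM in WT and 538 in the mutant, 0.36 (0.29 to 0.43). None of these 4 passed 1.5-fold. Osteocytes, with 27 and 21 cells, went from 766 to 475 CPM, -0.69 (-0.92 to -0.46), where 9.24% of genes were lower and 25.1% higher. Osteocyte markers there went from 52889 to 20650 CPM in sum, with 3 of 8 lower by more than 1.5-fold and 2 higher. Their part in the osteocyte values was not tested. Muscle cells, at 144 and 91.8 CPM, and erythrocytes, at 43.3 and 17.9, were also lower by more than that fold. Of all genes tested in muscle cells 13% were lower and 14.8% higher, and in erythrocytes 9.1% and 13.8%. In Schwann cells none of the 3 members tested passed, where 9.13% of genes were higher and 13.8% lower.

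Mesenchymal Timp3 differed by cluster. In the Fmod and Tnn cluster its level was 481 CPM in WT and 1120.1 in the mutant, 1.22 (1.11 to 1.33), where 9.79% of genes were higher. In the Prg4 and Pi16 cluster it was 393 and 367 CPM, -0.10 (-0.19 to -0.01). The Prg4 split, chosen after the values were seen, gave 479 CPM in WT and 973 in the mutant without Prg4, 1.02 (0.93 to 1.11), and 377 and 270 CPM with it, -0.48 (-0.59 to -0.37). Split by Pi16, Timp3 was higher in the mutant on both sides, at 379 and 513 CPM with Pi16, 0.44 (0.32 to 0.55), and at 454 and 553 without it, 0.28 (0.20 to 0.37). Single droplets weighed on these values. Once the droplet with most Timp3 was left out of each library, levels were 353 and 401 CPM with Pi16 and 375 and 523 without it. They were 301 and 256 CPM with Prg4 and 452 and 876 without it. The naming genes of the Fmod and Tnn cluster were lower in the mutant. Within this cluster Timp1 and Timp3 therefore differed between the libraries in opposite directions.

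Nearly every Schwann cell carried Timp3 after thinning, 86.7% (82.4% to 90.3%) in WT, and the mutant value was 89.0% (82.8% to 93.6%). Myelinating Schwann cells had 1816 and 1945 CPM. Non-myelinating cells, with 50 in WT and 14 in the mutant, had 1083 and 1455 CPM. In endothelial cells the thinned share was 83.9% in WT and 71.5% in the mutant, and B cells had 0% and 2.13%. An unnamed cluster led by Dok6, Plppr1 and Gpc5, with 85 WT and 29 mutant cells, also had Timp3 at 1152 and 858 CPM.

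Macrophages had little Timp3 in WT and more in the mutant. In the macrophage clusters shared by both libraries the level was 7.15 CPM in WT, from 90 UMIs, and 25.2 in the mutant, from 332, 1.82 (1.48 to 2.17). The clusters led by C1qa and Mrc1, at 5.53 and 20.6 CPM, and by Mmp12, at 7.92 and 31.4, both showed it. With a further cluster of 21 WT and 298 mutant cells, named from inflammatory markers, the levels were 7.70 CPM (6.25 to 9.38) and 36.4 CPM (33.4 to 39.7), 2.24 (1.93 to 2.57). That cluster was shallow, with median depths of 1528 and 1289 UMIs, and its leading genes were Pf4, Arg1, Bank1, Rab27b and Nos2. Its mesenchymal markers summed to 490 and 987 CPM. Its macrophage markers summed to 655 and 1621 CPM, beside 8084 and 7455 in the C1qa and Mrc1 cluster and 2100 and 2029 in the Mmp12 cluster. Whether its cells were macrophages was not tested, and values given for macrophages as a whole include it. Among 4 members tested with it, Timp3 and Timp4 were higher, where 20.3% of genes were higher in mutant macrophages and 3.91% lower. In the shared clusters Timp3 was higher among 3 members tested, where 17.4% of genes were higher and 4.32% lower, and Timp4 had 12 and 19 UMIs, under the minimum. Over all macrophages, the shallow cluster included, marker sets of mesenchymal, endothelial, Schwann and pericyte cells moved the same way. Chondrocyte markers did not, at 7.85 and 7.03 CPM in sum, with 3 of 8 higher by more than 1.5-fold and 3 lower. Summed mesenchymal markers went from 61.8 to 164 CPM with 7 of 8 higher by more than 1.5-fold, endothelial markers from 69.1 to 98.3 with 6 of 8, Schwann markers from 70.3 to 122 with 7 of 8, and pericyte markers from 16.4 to 32.1 with 6 of 7, and in neither library was any of these markers at 0. In the Mmp12 cluster 5 of 8 mesenchymal markers were higher by that fold and 1 lower. Endothelial markers there had 3 of 8 higher and 3 lower. Both Schwann (5 of 8) and pericyte markers (5 of 7) were mostly lower, with 1 of each higher. In the C1qa and Mrc1 cluster 2 of 8 mesenchymal, 4 of 8 endothelial and 7 of 8 Schwann markers were higher. There 6 of 7 pericyte markers were higher and 1 lower, and 4 were at 0 in WT. Of 8 chondrocyte markers 1 was higher and 7 lower in that cluster, and 2 were higher and 3 lower in the Mmp12 cluster. The part of these markers in the Timp3 value was not tested. The WT level was close to that of B cells, and the thinned share of macrophages with Timp3 was 0.906% in WT and 6.06% in the mutant.

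Timp4 was highest in endothelial cells and next in smooth muscle cells among the 15 types, in that order in both libraries. Endothelial cells had 3712 UMIs over 1130 WT cells, 506 CPM (490 to 522), and 1095 UMIs over 636 mutant cells, 222 CPM (209 to 236). The log2 ratio was -1.19 (-1.29 to -1.09), a 2.28-fold lower level. Timp4 and Timp1 were the members lower by more than 1.5-fold among 5 tested in endothelial cells, where 5.93% of genes were lower and 7.07% higher. General endothelial markers were alike, 7762 CPM in WT and 7243 in the mutant in sum, with 0 of 8 past 1.5-fold. After thinning, 54.7% of WT endothelial cells (51.6% to 57.9%) and 34.2% of mutant cells (30.3% to 38.2%) had a Timp4 UMI, against 65.2% and 47.0% before thinning, and none of the thinned B cells of either library did.

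Smooth muscle cells showed no such gap, with 109 CPM in WT and 113 in the mutant, 0.05 (-0.27 to 0.36). After thinning, 11.2% of them in WT and 14.9% in the mutant had a Timp4 UMI. Without the droplet with most Timp4 the levels were 94.3 and 91.7 CPM. Endothelial markers were not summed in smooth muscle cells. Pericytes, which wrap the same vessels, had 1 UMI of Timp4 in each library. All other types lay under 22 CPM. Timp4 was thus found in the vessel lining and in a minority of smooth muscle cells. The interval of the ratio lay wholly below 0 in the lining and included 0 in the muscle. The difference between these types was not tested.

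Within endothelial cells Timp4 was graded from the capillary to the venous cluster. In the capillary cluster (518 WT and 247 mutant cells), of which Timp4 was itself a leading gene, it was at 1232 CPM in WT and 620.0 in the mutant, -0.99 (-1.10 to -0.88), where 7.37% of genes were lower. In the arterial cluster (342 and 175 cells) it was at 277 and 91.7 CPM, -1.59 (-1.88 to -1.31), where 9.01% were lower. In the venous cluster (167 and 92 cells) it had 39 and 2 UMIs, 14.6 and 1.16 CPM, a ratio of -3.65 with the interval from -6.75 to -1.70. The order capillary, arterial, venous held in both libraries without overlap of intervals. A shallow endothelial cluster had 376 and 105 CPM, where 22.5% of genes were lower. An unnamed cluster with endothelial-type leading genes had 397 and 112 CPM, where 17.4% were lower. The CPM was thus lower in the mutant in all 5, though the venous cluster had too few UMIs to be counted as lower. The venous cluster also held most endothelial Prox1, with 284 of 295 UMIs in WT and 114 of 119 in the mutant. Prox1 was found in 16.2% and 18.5% of its cells, and 152 of the WT UMIs lay in 1 droplet. Whether this cluster holds lymphatic endothelium was not tested.

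Identity genes of the endothelial subtypes did not all hold their level. In the capillary cluster 4 of 6 capillary markers were lower by more than 1.5-fold, from 6151 to 3898 CPM in sum with a median of -0.68, while 0 of 8 general endothelial markers passed that fold. In the arterial cluster 0 of 7 arterial markers passed it, with a median of -0.11, beside the Timp4 ratio of -1.59. The arterial value was therefore wider than that of any of its own markers. The thinned share of arterial cells with Timp4 was 43.3% (37.8% to 49.0%) in WT, and the mutant value was 19.5% (13.9% to 26.2%), and that of capillary cells 81.7% and 63.2%. With all 5 members left out of the clustering genes, the Timp4 ratio in endothelial cells was -1.12.

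Timp3 behaved differently from Timp4 across the same vessels. Of the arterial, capillary and venous clusters, the arterial one had most, with 2031 CPM in WT and 1568 in the mutant, -0.37 (-0.45 to -0.30). The capillary cluster was at 1319 and 954 CPM, -0.47 (-0.56 to -0.38). In the venous cluster it was at 1395 and 1407 CPM, 0.01 (-0.06 to 0.09). So the venous cluster had equal Timp3 within counting error, and the capillary and arterial clusters less in the mutant. Timp1 was low in vessel lining and highest there in the venous cluster, with 26.1 and 13.9 CPM, and was the member lower by more than 1.5-fold in that cluster, where 8.98% of genes were lower. Capillary cells with both Timp3 and Timp4 made up 68.3% of thinned WT cells and 46.6% of mutant cells.

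**Figure D3:**
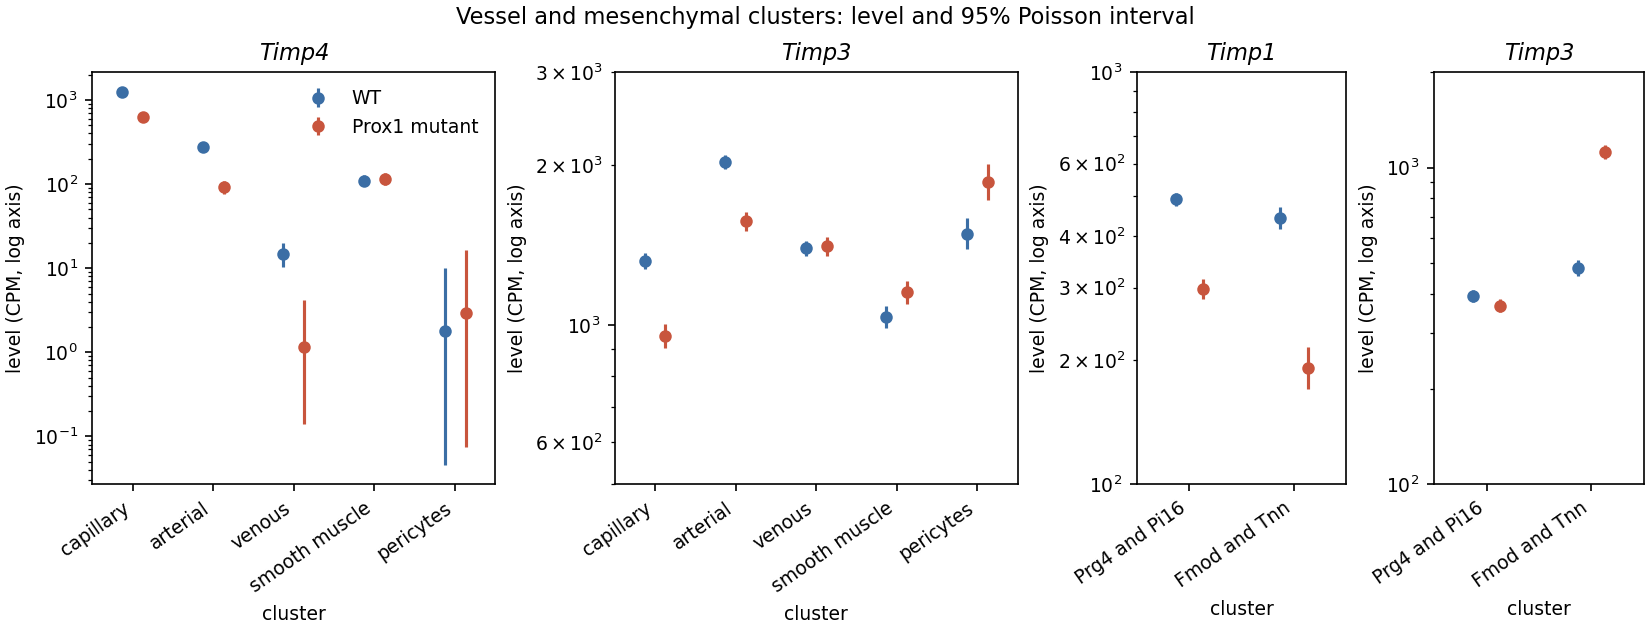
Level (CPM, log axes) with 95% Poisson intervals of Timp4 and Timp3 in vessel clusters and of Timp1 and Timp3 in mesenchymal clusters, WT in blue and Prox1 mutant in red. Timp4 runs from 1232 CPM in the WT capillary cluster down to 1.16 in the mutant venous cluster. Smooth muscle stays near 110 in both libraries, and in the Fmod and Tnn cluster Timp1 is lower and Timp3 higher in the mutant.

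Reck, the membrane inhibitor, had the fewest UMIs of the 5, 719 in WT and 580 in the mutant. It was highest in Schwann cells, with 66.6 CPM (55.3 to 79.5) in WT, and in the mutant it was at 91.7 (71.6 to 116), a log2 ratio of 0.46 (0.02 to 0.90). Osteocytes had 45.0 and 65.2 CPM, mesenchymal cells 37.6 and 34.4, and chondrocytes 26.8 and 58.9. In WT each of these overlapped its neighbour in the order, and in the mutant mesenchymal cells also overlapped pericytes, at 38.2 CPM. Endothelial cells, at 5.86 and 5.68 CPM, stood well below. The thinned share of Schwann cells with Reck was 9.39% (6.38% to 13.2%) in WT, and the mutant value was 21.2% (14.9% to 28.8%), beside 0.840% and 0% of B cells.

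Reck was found in both Schwann subtypes. Myelinating cells had 57.4 and 87.5 CPM, 0.61 (0.08 to 1.13), past 1.5-fold. Reck was the 1 member of 3 tested that was higher there, where 7.88% of genes were higher and 8.82% lower. Non-myelinating cells had 84.9 and 120 CPM, the last from 12 UMIs. The Dok6 and Plppr1 cluster had 73.4 and 79.1 CPM. In the mesenchymal clusters Reck was at 40.6 and 36.6 CPM (Prg4 and Pi16) and at 30.7 and 33.3 (Fmod and Tnn), differences within counting error. In neutrophils Reck was at 12.1 CPM in WT and 7.60 in the mutant, and there Timp4 and Reck were the members lower by more than 1.5-fold of 4 tested, where 8.91% of genes were lower and 9.92% higher. Of the 41 WT Timp4 UMIs in neutrophils, 21 lay in 1 droplet. In the neutrophil clusters shared by both libraries Timp4 had 38 and 2 UMIs, under the minimum, and Timp3 and Reck were the lower members of 3 tested. In those clusters 10.5% of genes were lower and 9.67% higher. Summed mesenchymal markers in neutrophils went from 404 to 232 CPM and endothelial markers from 63.5 to 83.1, and their part in these values was not tested.

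**Figure D4:**
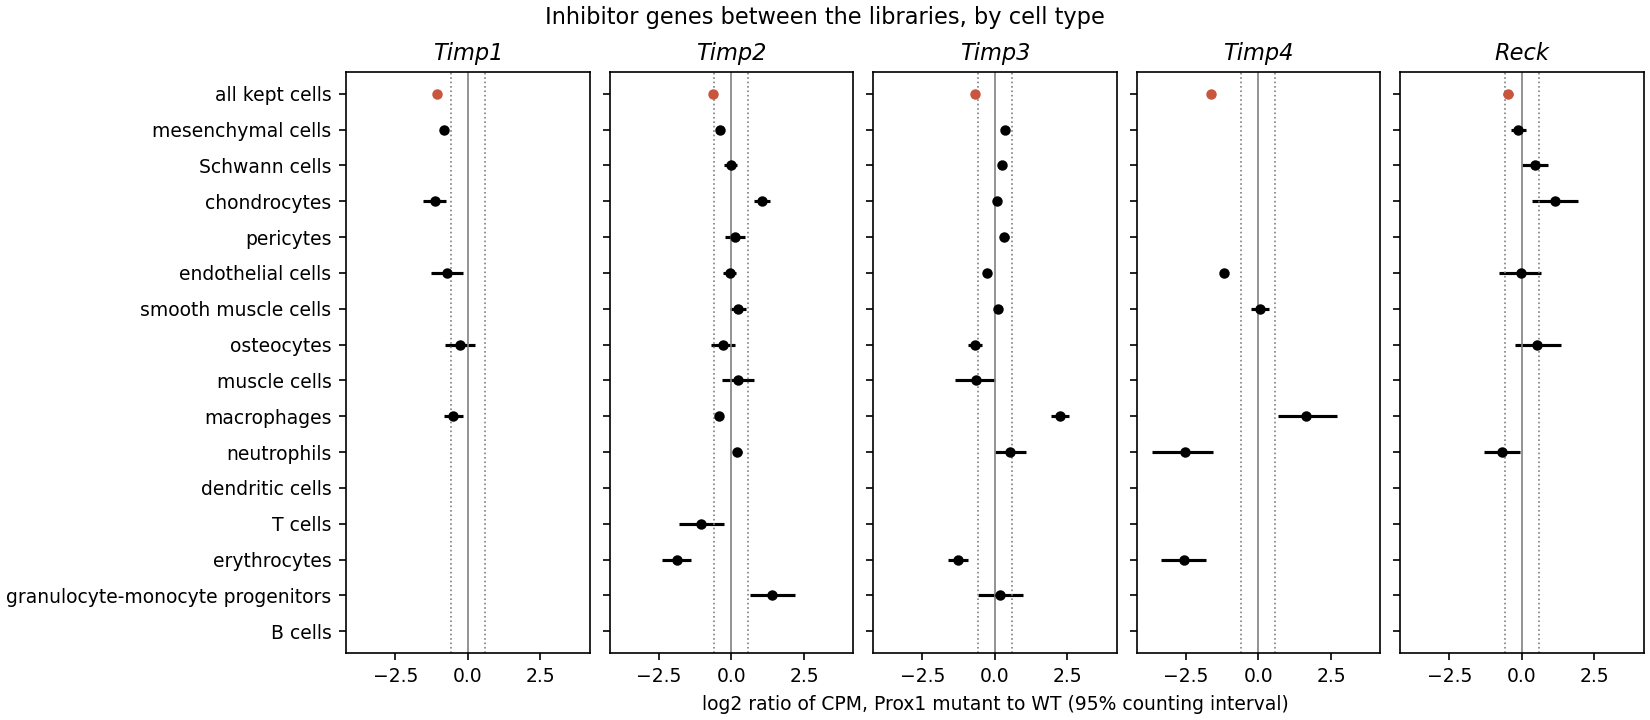
Log2 ratio of CPM, Prox1 mutant to WT, with 95% counting intervals, for each gene over all kept cells (red) and in each cell type with at least 50 UMIs of it (black), with 1.5-fold as dotted lines. Every red point lies below 0. Within types Timp3 is 2.24 in macrophages (shallow cluster included), 0.36 in mesenchymal cells and -0.28 in endothelial cells.

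Erythroid cells had traces that moved with stromal genes. In erythrocytes, which should lack these inhibitors, Timp2 was at 24.7 CPM in WT and 6.65 in the mutant, Timp3 at 43.3 and 17.9, and Timp4 at 15.3 and 2.59. A single WT droplet held 64 of the 90 Timp2 UMIs. Summed mesenchymal markers there went from 342 to 62.6 CPM in the same direction, and their part in these values was not tested. Collagen gene Col1a1 stood at 8230 CPM in WT mesenchymal cells and at 54.0 in WT B cells.

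Members were detected together in the same cells where their types overlapped. The share of a pair depends on the share of each gene, and whether it differed from independent detection was not tested. Among thinned mesenchymal cells 23.7% in WT and 17.95% in the mutant had both Timp1 and Timp2, and 33.7% and 27.95% had both Timp2 and Timp3. Among thinned Schwann cells 40.1% and 45.9% had both Timp2 and Timp3. Among thinned endothelial cells 46.6% and 24.7% had both Timp3 and Timp4. At least 1 of the 4 Timps was missing from every thinned cell, and endothelial cells with none made up 6.55% in WT and 17.2% in the mutant, against 96.6% and 96.8% of B cells.

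The pattern of each member over the 30 points given by 15 types in 2 libraries was set against 11741 genes, as a description, since types of a library share its depth and free RNA. The genes most like Timp1 were Creb3l1, Igsf10 and Cd109, each with a Pearson r of 0.94, then Fkbp10 (0.93) and Dlx6os1 (0.92). Those most like Timp2 were Ltbp3 (0.87), Gsn (0.86), Fzd1 (0.83), Htra1 (0.82) and Hectd2 (0.80). Timp3 was most like Lama4 (0.96), which encodes a laminin chain of vessel and nerve basement membrane, then Fermt2 and Btbd3 (both 0.95), and Fbxl7 (0.94). Timp4 was most like Fabp4 and Tmem255b (both 0.88), Podxl, Kcna5 and Tcf15 (each 0.87), of which Fabp4 encodes a fatty acid binding protein of capillaries and fat cells. Reck was most like Sgcd, Ttc8 and Rab40b (each 0.90), S100b and Magi2 (both 0.89), S100b being a Schwann cell marker. Between members r was 0.78 for Timp3 and Reck, 0.69 for Timp1 and Timp2, and 0.00 for Timp2 and Timp4.

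The enzymes that these proteins act on lay partly in the same cells and partly in others. Mmp2 was highest in mesenchymal cells with Timp2, at 883 CPM in WT and 735 in the mutant, -0.26 (-0.32 to -0.21). Mmp14, its membrane activator, was also highest there, at 401 and 342 CPM, -0.23 (-0.31 to -0.15). All 3 genes of this group were thus lower in the mutant in these cells, though Timp2 passed 1.5-fold only with the looser cell filter. Mmp12, the elastase of macrophages, was at 2476 and 1521 CPM in macrophages, -0.70 (-0.73 to -0.68). The cluster led by Mmp12 held 261 of 584 macrophages in WT and 197 of 947 in the mutant. Summed over 22 Mmp genes it had 4393 and 3827 CPM, and the C1qa and Mrc1 cluster 583 and 577. The shallow cluster named from inflammatory markers had 2911 and 1137 CPM, and a further inflammatory one 2854 and 1428. The part of the cluster mixture in the Mmp12 value was not tested. Neutrophils led for Mmp8, a collagenase, at 731 and 1251 CPM, 0.78 (0.71 to 0.84), and for Mmp9, a gelatinase, at 525 and 577. The neutrophil cluster with macrophage markers is included in the neutrophil values. The enzymes of blood cells therefore differed in both directions.

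The ADAM and ADAMTS enzymes had their highest levels in different cell types. Adam17, the sheddase of TNF, was highest in macrophages, at 219 and 277 CPM, and Adam10 in Schwann cells, at 397 and 477. Adam8 in macrophages was at 248 and 153 CPM, -0.70 (-0.78 to -0.62), and Adam15 in endothelial cells at 164 and 165. Adamts5, an aggrecanase, was highest in mesenchymal cells at 261 and 237 CPM. Adamts9 was highest in endothelial cells at 723 and 555 CPM, Adamts1 in smooth muscle cells at 761 and 824, and Adamts2, which trims procollagen, in osteocytes at 341 and 369. Among membrane enzymes, Mmp16 was highest in osteocytes at 483 and 1205 CPM, 1.32 (1.11 to 1.53). Osteocytes had 27 and 21 cells, and 25.1% of genes there were higher and 9.24% lower. Their own markers went from 52889 to 20650 CPM in sum, with 3 of 8 lower by more than 1.5-fold and 2 higher. Mmp25 was highest in neutrophils at 83.4 and 124 CPM, and Mmp15 in Schwann cells at 106 and 129.

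Of the proteins that bind TIMPs at the cell surface, Lrp1, an uptake receptor, was at 655 CPM in WT and 582 in the mutant in mesenchymal cells, and Cd63, a TIMP1 partner, at 1853 and 1189 in osteocytes. Cd44 was highest in macrophages at 1270.2 and 1960.3 CPM, and Itgb1 in pericytes at 1041 and 920.4. Of other secreted regulators of proteinases on the list, the testican gene Spock2 in endothelial cells was at 102 and 18.1 CPM, -2.50 (-2.83 to -2.18). A2m, a broad proteinase inhibitor, was at 195 and 35.4 CPM in osteocytes, from 104 and 19 UMIs. Pcolce, an enhancer of procollagen cleavage, was at 550.3 and 471 CPM in mesenchymal cells. The limits given above for osteocytes hold for Cd63 and A2m too.

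By counts over the whole list, the enzymes did not move as a block. In mesenchymal cells 3 of 10 secreted MMPs tested were higher and 2 lower, 0 of 3 membrane MMPs passed 1.5-fold, 1 of 8 ADAMs was higher, and 1 of 9 ADAMTS genes was higher and 3 lower, where 6.77% of all genes were higher and 5.45% lower. In endothelial cells 3 of 6 secreted MMPs were higher and 1 lower, 2 of 7 ADAMs were higher, and 0 of 6 ADAMTS genes passed, where 7.07% were higher and 5.93% lower. In macrophages 1 of 6 secreted MMPs was higher and 3 lower, and 4 of 6 ADAMTS genes were higher, where 20.3% were higher and 3.91% lower. In macrophages, the shallow cluster included, 7 of 8 mesenchymal markers were also higher by more than 1.5-fold. Their part in the ADAMTS values was not tested. Macrophage markers in turn were higher by that fold for 7 of 8 in both mesenchymal and endothelial cells. Their sums went from 49.3 to 127 CPM in mesenchymal and from 45.2 to 109 CPM in endothelial cells. The part of these markers in the MMP counts was not tested. In Schwann cells 3 of 4 ADAMTS genes were lower, where 13.8% were lower and 9.13% higher. In neutrophils 1 of 5 secreted MMPs was higher and 2 lower, where 9.92% were higher and 8.91% lower.

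The sum of the 4 Timps per UMI of 22 Mmp genes differed between cell types. Endothelial cells had 10.9 Timp UMIs per Mmp UMI in WT and 8.07 in the mutant, Schwann cells 7.64 and 7.76, pericytes 6.38 and 5.68, and smooth muscle cells 6.11 and 8.10. Mesenchymal cells had 1.17 and 1.21. Osteocytes had 0.5004 and 0.247, neutrophils 0.105 and 0.0908, and macrophages 0.0874 and 0.113. Within macrophages the Mmp12 cluster had 0.0686 and 0.0559, and the C1qa and Mrc1 cluster 0.425 and 0.455. Within neutrophils the cluster with macrophage markers had 0.128 and 0.141, and the others 0.152 and 0.122, and 0.0642 and 0.051. The ratio counts captured transcript ends, not active protein, and its sums are made up of different genes in different cell types. Neither its order over cell types nor its nearness to 1 can therefore be read as a balance of the proteins.

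**Figure D5:**
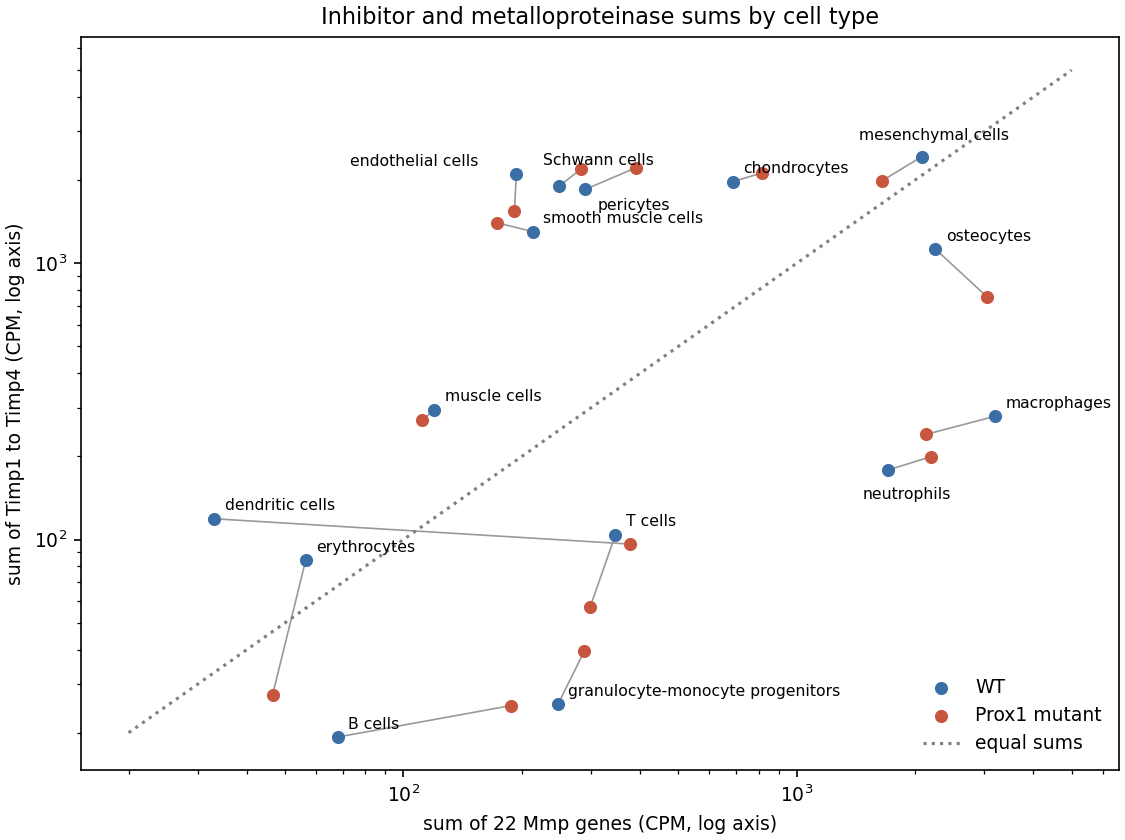
Summed level of the 4 Timps against that of 22 Mmp genes (CPM, log axes) in each cell type, with WT in blue and Prox1 mutant in red joined by a line; the dotted line marks equal sums. Vessel, Schwann and cartilage cells lie above it in both libraries, mesenchymal cells close to it, and macrophages, neutrophils and osteocytes below. The line is a visual guide only, since nearness to equal sums of transcript ends cannot be read.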

How the data were processed

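Cells of 2 TMJ libraries, 1 per condition, were used. The authors captured cells with a 10x 3′ kit, aligned reads to GRCm38 (mm10) and counted UMIs per gene and barcode with Cell Ranger 7.0.1, and the deposited values are raw UMI counts without normalization. The labels and the methods name different kit versions and different collagenases, and whether intronic reads were counted is not given in the sources used here. Sex follows the study's text. In all, 5709 WT barcodes carried 53517206 UMIs and 7846 mutant barcodes carried 62446987.

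The filter of 500 genes or more and a mitochondrial share under 10% left 76.2% and 73.4% of barcodes. SCTransform, anchors over 3000 features, 200 principal components and resolution 1.5 followed the study where it gives a setting (Seurat 5.3.0, sctransform 0.4.2, R 4.3.3, Python 3.11.15, scipy 1.17.1, scanpy 1.11.5). Of the 5 members, 4 were among the clustering genes. A cluster took the name of the type with at least 3 raised markers (2-fold, in 10% of cells) and the highest mean ratio, and stayed unnamed (9 of 43) when markers of another lineage prevailed or when it was shallow without leading markers. The members, gene lists and naming rules were chosen with earlier results of these data known.

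CPM, Poisson, Clopper-Pearson and binomial split intervals at 95% and shares thinned to 2000 UMIs were computed from the counts. No test was made. Genes named are the members, up to 4 genes of each pathway group with the highest CPM, the 5 most correlated genes on log2(CPM + 5) with at least 200 UMIs in each library, and genes that overlap a member. Some genes that this rule picks are not reported here. The interval and fold calculation was tested on simulated data. Doublets were scored with Scrublet, whose automatic threshold called 0, so the highest scores were removed only in an alternative (239 WT and 462 mutant barcodes). The alternatives tried were other cell filters, other denominators, thinning, clustering settings, leaving out the leading droplet and leaving the members out of the clustering. Promoter sequences are from RefSeq (27025 symbols, all 5 members matched). No protein sequence was used here.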

Additional observations from a re-analysis of the deposited data

How the results depend on the processing

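No paired analysis was possible because each condition has 1 library. No alternative turned the direction of a ratio except that Reck over all kept cells became 0.015 when mutant cell types were weighted as in WT. Of 62 alternatives to the ratios in leading types, 47 stayed within the counting interval, and of 45 over all kept cells 21 did. For Timp4 in endothelial cells all did, and the thinned Reck value in Schwann cells depends on the random draw. The cause of the moves below was not tested. Timp1 in mesenchymal cells became -0.64 when thinned, -0.94 without the leading droplet, -0.52 with a filter of 200 genes and 20% mitochondrial share, -1.01 with the highest Scrublet scores removed, -0.72 at resolution 0.5 and -0.68 with the members left out of clustering. Timp2 there became -0.56 as a mean over cells, -0.61 with the looser filter, -0.54 at resolution 0.5, -0.51 merged without integration and -0.43 with the members left out. Timp3 in Schwann cells became 0.12 as a mean over cells, 0.13 thinned, 0.074 with the looser filter and 0.36 with the highest Scrublet scores removed. Over all kept cells, relative to the median gene (-0.08), Timp1, Timp2 and Timp3 became -0.97, -0.56 and -0.61, and without haemoglobin and mitochondrial UMIs -0.98, -0.57 and -0.61. As a mean over cells Timp1 to Timp4 became -0.20, -0.51, -1.04 and -2.04, and thinned -0.27, -0.51, -0.97 and -1.87. Weighted as in WT they became -0.72, -0.29, -0.061 and -1.08. Timp1 became -1.12 without the leading droplet and -1.13 with the highest Scrublet scores removed. Timp2 and Timp3 became -0.71 and -0.75 with the looser filter, and Timp3 -0.74 with a filter of 1000 genes and 5%. With at least 200 UMIs the share of genes higher by 1.5-fold became 5.85% in Schwann cells, 3.61% in endothelial cells and 3.81% in mesenchymal cells, and lower 3.37% in mesenchymal cells. The highest type of Timp3 was pericytes with the highest Scrublet scores removed or with 30 principal components. Reck had the fewest UMIs and the widest intervals.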
